A study of Mus musculus with 6 samples.

Results

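The keratins and claudins are described here in the Nxnl2-/- mouse retina, sampled on post-natal day 40 from the strain BALB/c AJ. Members were chosen by gene symbol: probe sets naming exactly 1 gene whose symbol begins with Krt or Cldn and a digit, with the probe set of the highest mean over the 6 arrays standing for each gene. This gave 72 of the 18193 genes measured, of which 48 were keratins and 24 claudins. There are 3 arrays that carry the label of the homozygous Nxnl2 knockout (ko/ko) and 3 that of wild type (wt/wt). Both are on the same strain, at the same age and described as dissected away from the pigment epithelium. Values are the deposited log2 signals. The labels do not say whether replicates are separate animals, so a p-value here reflects only how these arrays vary, which could be technical.

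Keratins are the intermediate filament proteins of epithelial cells. A type I chain pairs with a type II chain, and the filaments are anchored at desmosomes. Claudins are membrane proteins that seal tight junctions between epithelial or endothelial cells or form ion-selective pores in them. Neurons and photoreceptors of the retina are not keratin-rich cells, so these families are commonly read as signs of epithelium: Krt8 and Krt18 of simple epithelia, Krt5 and Krt14 of the basal layer of stratified epithelia, Krt12 of the corneal surface, and Cldn5 of the vessel wall of the blood-retina barrier.

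One array stands apart. Nxnl2, the targeted gene, read 3.78, 3.73 and 9.21 in knockout replicates 1, 2 and 3, against 11.38, 11.45 and 11.42 in wild-type replicates 1, 2 and 3, so the last knockout label goes against its own target gene. It is called the array labelled knockout replicate 3 here. The rod gene recoverin (Rcvrn) read 3.18 in it, against 13.54 to 13.77 in the other 5 arrays, and Omp, the marker of mature olfactory neurons, read 12.61 against 5.15 to 5.62. Genotype results are therefore given with and without that array. A probe set is called above background here when it exceeds the brightest of 27 Bacillus control probe sets of its array, which lay between 4.13 and 4.60. This is a strict bound, since the next brightest control lay between 3.49 and 3.82.

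Compared with the mean of the other 5 arrays, 17 of the 72 members were over 2 log2 units higher in the array labelled knockout replicate 3, and 0 were that much lower. Over all 18193 genes those shares were 7.44% above and 4.49% below, against 23.6% and 0.0% of the members. Claudins made up 10 of the 17, which is 41.7% of the 24 claudins, and keratins 7, which is 14.6% of the 48 keratins. A single array has no replicate, so these are differences of given size with no test. In bulk tissue, fewer cells of a type and less RNA per cell cannot be told apart. The median difference was 0.01 over the members, -0.03 over keratins and 0.50 over claudins, against -0.05 over all genes. The middle of the keratins thus lay near the other arrays. Without regard to size, that array lay above all 5 others for 28 members, where 36.5% of genes did, and below all 5 for 21, where 42.4% did. Of the 17 members, 6 were above background in none of the other 5 arrays and 6 in all of them. Differences against values below background are lower limits and have no order. Cldn2 at 2.07 was the member just inside the 2-unit size, and Krt6b at 1.77 and Krt18 at 1.71 were those just outside. Without Cldn2, which left the count when knockout replicate 1 was dropped from the other arrays, when arrays were rescaled or when probe sets were averaged, 16 members remained.

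**Figure D1:**
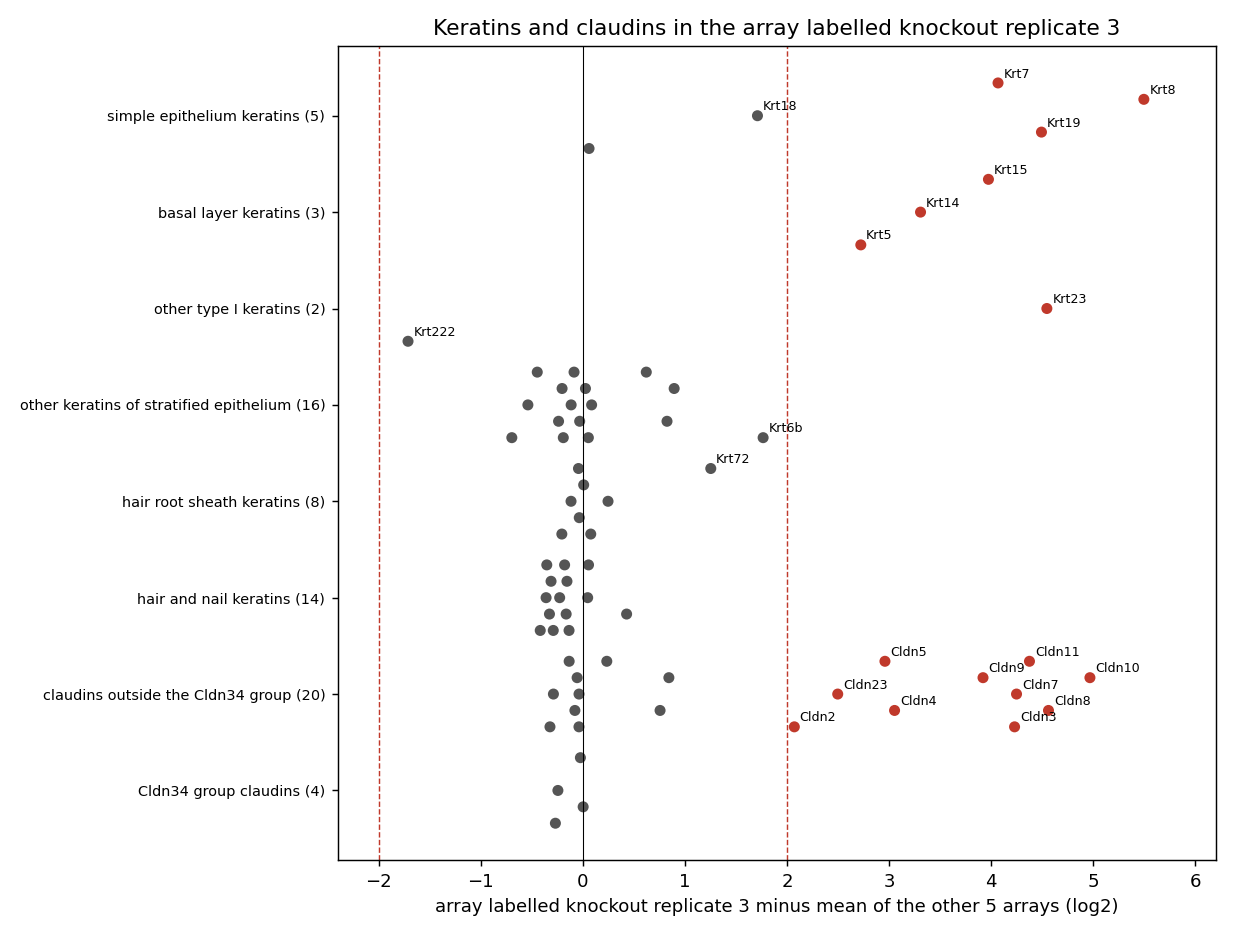
Difference between the array labelled knockout replicate 3 and the mean of the other 5 arrays (log2, horizontal axis) for each of the 72 members, by class with the number of members in brackets. Each point is 1 gene, dashed lines mark 2 log2 units, red points lie above that size, and vertical offsets within a class only separate points. All 3 basal layer keratins and 10 of 20 claudins outside the Cldn34 group lie above it, while all 14 hair and nail keratins lie between -0.42 and 0.43.

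Most keratins of simple epithelium were high in that array. Krt8, the type II keratin of simple epithelia, read 11.48 in the array labelled knockout replicate 3, against 5.56 and 6.00 in knockout replicates 1 and 2 and 6.13, 6.43 and 5.76 in wild-type replicates 1, 2 and 3. That array lay 5.50 above the mean of the other 5, whose SD was 0.33, and the other 2 Krt8 probe sets gave 6.07 and 5.08. Krt18, its type I partner, was bright in every array: it read 11.90 there, against 10.09 and 10.72 in the other knockout arrays and 10.20, 10.09 and 9.84 in wild type. All 5 of those values were above background, and the difference was 1.71. Krt19, a type I keratin of simple and ductal epithelia, read 7.84 against 3.09 to 3.45 in the other 5 arrays, and Krt7, a type II keratin of ducts and glands, read 7.82 against 3.60 to 4.03. Neither exceeded the control bound in any of those 5. Krt20, a keratin known from gut and bladder lining, was the exception in this class, with 3.57 against 3.46 to 3.56, below background throughout.

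Basal layer keratins were also high in that array. Krt5, the type II keratin of basal cells, read 7.72 in the array labelled knockout replicate 3, against 4.88 and 5.20 in knockout replicates 1 and 2 and 5.08, 4.94 and 4.91 in wild-type replicates 1, 2 and 3. Its partner Krt14 read 7.69 against 4.27 to 4.49, and Krt15, another basal type I keratin, read 7.75 against 3.61 to 3.90. The 3 differences were 2.72, 3.31 and 3.97. One further Krt14 probe set gave 2.50 and the last 0.20, so the probe sets of that gene differed. Outside both classes, the type I keratin Krt23 read 8.71 against 3.92 to 4.36, a difference of 4.55. Trp63, the transcription factor of basal epithelial cells, was listed among the surface markers and read 4.26 against 4.23 to 4.48, which does not stand apart. Its values lay near or below the control bound in every array, below it in knockout replicate 1 and wild-type replicate 2.

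Keratins of the upper layers of stratified epithelium, of hair and of nail did not reach that size. Of the 16 other keratins of stratified epithelium 0 passed 2 log2 units, and their differences ran from -0.70 to 1.77. For 4 of them, Krt6b (1.77), Krt4 (0.89), Krt80 (0.82) and Krt6a (0.62), that array lay above all 5 others, and the other Krt6a probe sets gave 1.39 and 0.26. The suprabasal epidermal keratins Krt1 and Krt10 differed by 0.09 and -0.70. The corneal keratin Krt12 differed by -0.54, set against a mean that knockout replicate 2 raised with 5.01. It read 3.12 in the array labelled knockout replicate 3 and 3.10 to 3.52 in the rest, all below background. Like Krt18, Krt10 was bright in every array, at 7.65 there against 8.24 to 8.43 in the other 5. Krt42, of the hair and nail class, read 8.04 against 8.34 to 8.55, while its other probe set was below background in every array. Krt4 and Krt13, the pair of wet stratified linings such as mouth and oesophagus, differed by 0.89 and -0.20. Other probe sets gave 1.44 for Krt4 and 0.86 and 0.02 for Krt13. Krt17, a keratin of appendages and wounded skin, differed by -0.24 in one probe set and 1.29 in the other, both below background in the other 5 arrays. Among the 8 root sheath keratins the range was -0.21 to 1.25, with Krt72 at the top. The largest difference downward was that of Krt222, a short keratin-like gene, which read 4.99 against 6.51 and 6.81 in the other knockout arrays and 6.73, 6.71 and 6.75 in wild type. Its difference was -1.71, and -1.67 in its other probe set.

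**Figure D2:**
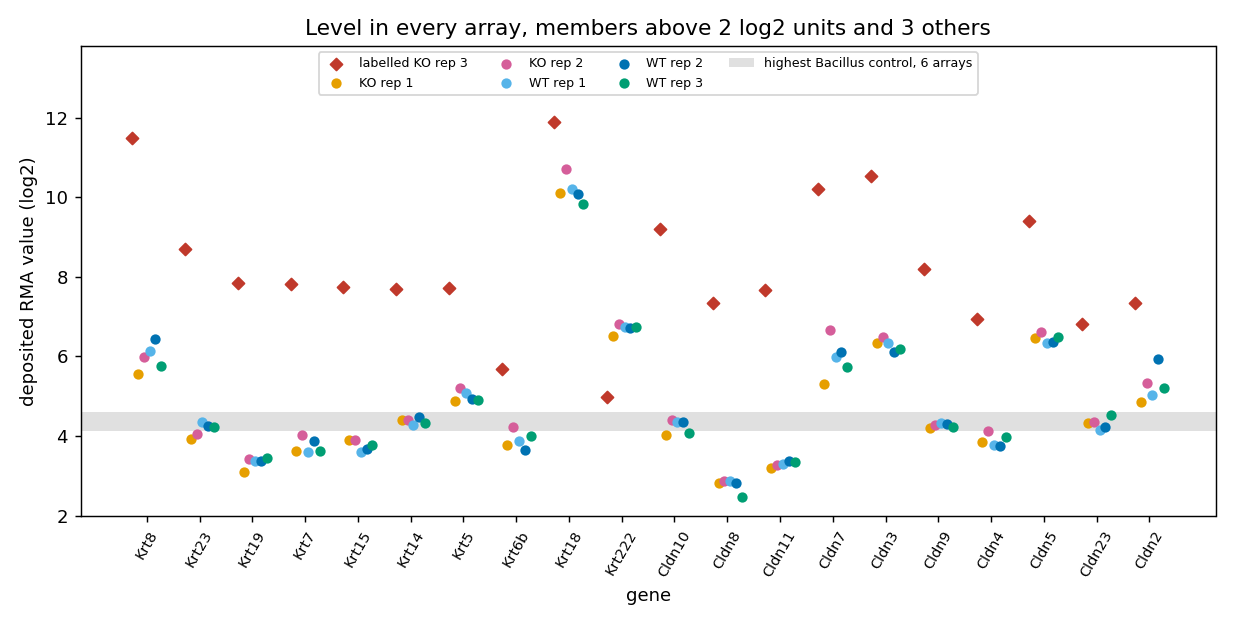
Deposited log2 value in every array (vertical axis) for the 17 members past 2 log2 units in the array labelled knockout replicate 3, and for Krt6b, Krt18 and Krt222. Red diamonds are the array labelled knockout replicate 3, circles the other 5 arrays, and the grey band spans the brightest Bacillus control of the 6 arrays (4.13 to 4.60). Red diamonds lie above every circle for all genes drawn except Krt222.

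Claudins of several functions were high in the same array. Among claudins known to tighten epithelial junctions, Cldn3 read 10.52 in the array labelled knockout replicate 3, against 6.34 and 6.48 in knockout replicates 1 and 2 and 6.34, 6.12 and 6.18 in wild-type replicates 1, 2 and 3. The difference was 4.23, and the other 3 Cldn3 probe sets gave 4.42 to 5.33. Cldn4 read 6.95 against 3.76 to 4.13, Cldn8 read 7.34 against 2.48 to 2.88, and Cldn7, a claudin of many epithelia, read 10.21 against 5.31 to 6.66. Cldn8 and Cldn4 exceeded the control bound in none of the other 5 arrays. Cldn7 exceeded it in all 5 and spread most of the claudins there, with an SD of 0.49. Cldn23, a claudin of skin and gut lining, read 6.82 against 4.15 to 4.53.

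Pore-forming members were high as well. Cldn10, whose isoforms form cation or anion pores, read 9.21 in the array labelled knockout replicate 3, against 4.02 and 4.41 in knockout replicates 1 and 2 and 4.35, 4.34 and 4.07 in wild-type replicates 1, 2 and 3. Its difference was 4.97, with 2 of the other 5 arrays above background. Cldn2, a cation and water pore, read 7.35 against 4.85 to 5.95, while its other probe set read 4.86 against 4.76 to 4.89, so its probe sets disagreed. Cldn15, another cation pore, differed by -0.08. Cldn9, a claudin known from the inner ear, read 8.19 against 4.19 to 4.34 by the brighter probe set on average. Its other probe set read 10.54 against 3.06 to 3.33, a difference of 7.33 against 3.92 for the one chosen.

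Claudins tied to other cell types were given beside the markers of those cells. Cldn5, the endothelial claudin, read 9.41 in the array labelled knockout replicate 3, against 6.34 to 6.61 in the other 5, a difference of 2.96. Of 15 other endothelial genes measured, 0 passed 2 log2 units above and 3 passed it below, with a median of 0.91 and the adhesion genes Pecam1 and Cdh5 at 1.14 and 1.26. The mean level of that list was 6.46 there and 6.35 to 6.47 in the other arrays. Cldn11, the claudin of myelin and of Sertoli cells, read 7.68 against 3.19 to 3.38, a difference of 4.38. Of 14 myelin genes, 4 passed 2 log2 units above, led by the lineage factors Olig1 at 7.27 and Olig2 at 5.37. The myelin proteins Mbp and Mog differed by 0.03 and -0.01, and Mog lay below background in every array. The mean level of the myelin list was 6.70 there and 4.99 to 5.14 in the other 5 arrays. The part of these cell types in the 2 claudin differences was not tested.

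The remaining claudins differed by less than 1 log2 unit. Cldn6 and Cldn13 stood at 0.84 and 0.76, beyond the SD of the other 5 arrays (0.10 and 0.05), and Cldn22 stood at 0.23. Cldn16, known from the kidney, stood at -0.29, below all 5 others and below background. The junction-sealing claudins Cldn1, Cldn14 and Cldn18 stood at -0.13, -0.04 and -0.06, and Cldn19, known from kidney and pigment epithelium, at -0.04. Cldn18 and Cldn19 were below background in all 6 arrays. The other Cldn1 probe sets, also below background, gave -0.47, -0.02 and 0.00. Cldn12, an atypical claudin, read 9.51 in the array labelled knockout replicate 3 against 9.72 to 10.01 in the other 5. It was above background in all 6 arrays. The 4 measured members of the Cldn34 group on the X chromosome ranged from -0.27 to 0.00 and were below background in all arrays.

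Genes that work with keratins and claudins differed in both directions. Of 19 tight junction partners, 3 passed 2 log2 units above: the adhesion molecule gene F11r (4.66), the scaffold gene Tjp3 (3.74) and Marveld2, the tricellulin of 3-cell contacts (3.28). The scaffold gene Mpdz lay below, at -3.02, while Tjp1, encoding ZO-1, differed by -0.02. The list's median was 0.76. Of 22 desmosome and cornified envelope genes 3 passed, namely the desmosome anchor gene Dsp (6.69), Sprr1a (3.14) and plakoglobin (Jup, 2.25), with a median of 0.32. Of 16 other intermediate filament genes, Lmna passed above (3.09), and the neuronal filament genes Nefl (-6.35), Nefm (-5.07), Nefh (-4.15) and Ina (-2.75) passed below, with a median of -0.09.

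Many surface epithelium markers other than keratins and claudins stood higher in the array labelled knockout replicate 3, as did nasal and ciliated ones. Of 21 surface markers, 12 lay more than 2 log2 units above, with E-cadherin (Cdh1) at 7.05, the corneal and airway enzyme Aldh3a1 at 6.48 and the gland water channel Aqp5 at 5.78, and with a median of 2.59. The mean level of that list was 7.61 there and 4.68 to 4.86 in the other 5 arrays. Medians were 8.23 for 16 olfactory neuron and nasal gland genes, of which 15 passed, and 2.51 for 15 motile cilia genes, of which 8 passed. On the other side stood the lists of rod photoreceptor genes (-8.59, 17 of 18 below), lens (-3.29, 10 of 17 below) and pigment epithelium (-2.15, 8 of 16 below). Skeletal muscle had a median of -0.66, with 1 of 18 below, Pvalb at -2.81. Its values are set against a mean that holds knockout replicate 2, where muscle genes were high. The mean level of the muscle list was 4.57 in the array labelled knockout replicate 3, 6.49 in knockout replicate 2 and 4.81 to 5.33 in the rest. Whether any of these tissues accounts for the keratin and claudin values was not tested.

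Position and promoter sequence were examined as features that the symbol rule did not use. Of 24 keratins on chromosome 11, 4 passed 2 log2 units, and of 24 on chromosome 15, 3 did. In the RefSeq gene order of GRCm38.p6, 44 pairs of members are direct protein-coding neighbours. Both genes passed in 2 pairs, Krt15 with Krt19 and Cldn4 with Cldn3, 1 gene passed in 9 pairs, and neither in 33. Krt8 and Krt18 are neighbours too, with 5.50 and 1.71, as are Cldn6 and Cldn9, with 0.84 and 3.92.

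Promoter windows of 5 members are shown because they belong to neighbouring partners (Krt8 with Krt18, Cldn3 with Cldn4) or, for Krt12, to the keratin that stood out in knockout replicate 2. Each window runs from 250 bases before to 50 bases after the RefSeq gene start on GRCm38.p6, 5′ to 3′ on the gene's strand. They lie at chr15:102004293-102004592 (minus strand), chr15:102027966-102028265 (plus), chr11:99422210-99422509 (minus), chr5:134985964-134986263 (plus) and chr5:134946885-134947184 (minus). Capitals mark matches on either strand to TATAAA (the TATA box), to GGGCGG (the GC box) and to CAGGTG (an E box).
Krt8: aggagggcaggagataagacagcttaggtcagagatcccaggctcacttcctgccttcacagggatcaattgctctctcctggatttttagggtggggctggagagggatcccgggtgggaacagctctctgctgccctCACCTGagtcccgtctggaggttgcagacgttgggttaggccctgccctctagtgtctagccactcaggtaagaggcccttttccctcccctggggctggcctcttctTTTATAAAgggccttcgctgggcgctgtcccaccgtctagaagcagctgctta
Krt18: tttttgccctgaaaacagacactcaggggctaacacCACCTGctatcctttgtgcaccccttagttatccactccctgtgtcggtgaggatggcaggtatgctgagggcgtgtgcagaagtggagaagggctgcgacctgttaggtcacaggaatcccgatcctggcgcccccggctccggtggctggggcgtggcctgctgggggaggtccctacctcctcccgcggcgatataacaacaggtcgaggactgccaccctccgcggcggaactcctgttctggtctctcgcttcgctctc
Krt12: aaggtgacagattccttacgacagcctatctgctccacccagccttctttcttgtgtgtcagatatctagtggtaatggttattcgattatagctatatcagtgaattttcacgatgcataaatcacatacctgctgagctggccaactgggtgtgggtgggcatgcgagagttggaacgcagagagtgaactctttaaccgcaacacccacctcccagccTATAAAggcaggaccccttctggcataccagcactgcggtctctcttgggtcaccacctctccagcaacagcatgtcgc
Cldn3: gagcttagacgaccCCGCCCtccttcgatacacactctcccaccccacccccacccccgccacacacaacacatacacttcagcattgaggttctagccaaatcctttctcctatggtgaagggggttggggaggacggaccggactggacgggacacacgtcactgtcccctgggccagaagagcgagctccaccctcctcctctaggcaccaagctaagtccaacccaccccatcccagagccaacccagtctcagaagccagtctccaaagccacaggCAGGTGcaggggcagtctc
Cldn4: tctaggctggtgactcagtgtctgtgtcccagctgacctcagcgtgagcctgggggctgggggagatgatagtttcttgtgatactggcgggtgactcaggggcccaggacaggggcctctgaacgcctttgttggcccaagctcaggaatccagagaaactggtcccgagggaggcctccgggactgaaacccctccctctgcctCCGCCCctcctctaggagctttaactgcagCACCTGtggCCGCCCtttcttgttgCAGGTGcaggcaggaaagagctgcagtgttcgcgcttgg

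These windows differ in their exact matches to TATAAA and GGGCGG, and near matches were not searched. Krt12 has TATAAA at bases 222 to 227 of its window, about where a TATA box is usually found before a start. Krt8 has it at bases 250 to 255, overlapping a match on the other strand at 248 to 253, and Krt18, Cldn3 and Cldn4 have none. Cldn3 and Cldn4 carry 1 and 2 GC boxes, and the 3 keratins have none. Of the 72 members, 51 matched the RefSeq promoter table, with 60 windows. TATAAA occurred in 18 of 33 keratin windows and in 2 of 27 claudin windows, against 13.6% of all 32851 windows. GGGCGG occurred in 2 keratin and 14 claudin windows, against 35.7% of all. CAGGTG occurred in 12 keratin and 5 claudin windows, against 20.2% of all. The Grainyhead motif AACCGGTT occurred in 0 of the 60 windows and in 0.146% of all. Such matches describe letters only.

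Of the 72 members, 24 were above background in all of the other 5 arrays, where 13097 of all 18193 genes were, so members were dim more often. Another 31 were above background in none of them, and values at background vary little. The range over those arrays was under 0.5 log2 units for 60 of the 72 members, with a median range of 0.30. Neither the 31 nor the 60 was counted over all genes. The median SD was 0.13 for members and 0.11 for all genes. Only Krt12, Cldn7 and Cldn2 had a range over 1 log2 unit, where 0.846% of all genes did. Each of the 5 arrays was then set against the mean of the other 4 to look for surface epithelium carried over with single retinas.

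Knockout replicate 2 was the array in which a keratin of the eye surface stood out. Krt12, the type I keratin of corneal epithelium, read 5.01 in knockout replicate 2, against 3.10 in the first knockout array and 3.52, 3.47 and 3.18 in the wild-type arrays. The array labelled knockout replicate 3 read 3.12. Knockout replicate 2 was thus 1.69 above the mean of the other 4 arrays and the only array in which Krt12 passed its control bound, 4.41 there. Since the other 4 values were below background, the difference is a lower limit. Its other probe set read 4.21, against 3.16 in the first knockout array and 3.33, 3.33 and 3.19 in wild type, higher by 0.95 but under the control bound. The brighter Krt12 probe set is of the kind (suffix _s_at) that can also bind transcripts of related genes, and the dimmer one is not.

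Krt12 was the single member of 72 more than 1 log2 unit above the rest in any of the 5 arrays, and 0 were that far below in any. In knockout replicate 2 that is 1.39% of members, against 0.121% of all genes, which is 22 genes, and 0.0495% of genes lay more than 1 below. The other arrays had few such genes: above and below, 0.066% and 0.0824% in knockout replicate 1, and in wild-type replicates 1 to 3, 0.0165% with 0.022%, 0.214% with 0.0055%, then 0.0165% with 0.0385%. At 0.5 log2 units 4 members of knockout replicate 2 were above, against 0.616% of all genes, and 0 were below, against 0.473%. Beside Krt12 these were Cldn7 (6.66, higher by 0.87), Krt18 (10.72, higher by 0.66) and Krt13 (3.84, higher by 0.52, below background). The other Krt13 probe sets differed by 0.05 and -0.12 there, so Krt13 rests on 1 probe set.

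Other genes of the surface were higher by less, or not higher, in that array. Aldh3a1, an abundant enzyme of corneal epithelium, read 3.30 in knockout replicate 2, against 3.20 to 3.35 in the other 4 arrays. Krt5 read 5.20, the highest of the 5, against 4.88 to 5.08, and Krt14 read 4.39 against 4.27 to 4.49. The other Krt14 probe sets differed by 0.35 and -0.04 in that array, both below background, so the probe sets of Krt14 disagreed. Krt6a and Krt6b, keratins of wounded epithelium, were 0.35 and 0.40 above the rest, Krt6b below background. Of the 21 surface markers 0 lay more than 1 log2 unit above, and the mucin gene Muc4 (0.60), the water channel gene Aqp3 (0.36), Esrp1 (0.34) and Slurp1 (0.33) came nearest. Their median difference was 0.13, and the list's mean level of 4.86 was the highest of the 5 arrays, against 4.68 to 4.72 in the other 4. That small shift was not particular to surface genes. In the same array the median was 0.11 for motile cilia genes, 0.09 for olfactory and nasal gland genes and 0.10 over the 72 members. The remaining lists, muscle apart, had medians of -0.49 to 0.10 there. Of the 22 desmosome and envelope genes 1 lay more than 1 log2 unit above, the cross-linking enzyme gene Tgm3, which read 7.31 against 5.85 to 6.45. Among the lists, skeletal muscle had the highest median in that array, with 11 of 18 more than 1 log2 unit above and a median of 1.69. Myh4, a fast muscle myosin, read 5.92 against 2.81 to 3.08. The part of muscle or other attached tissue in the Krt12 value was not tested.

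**Figure D3:**
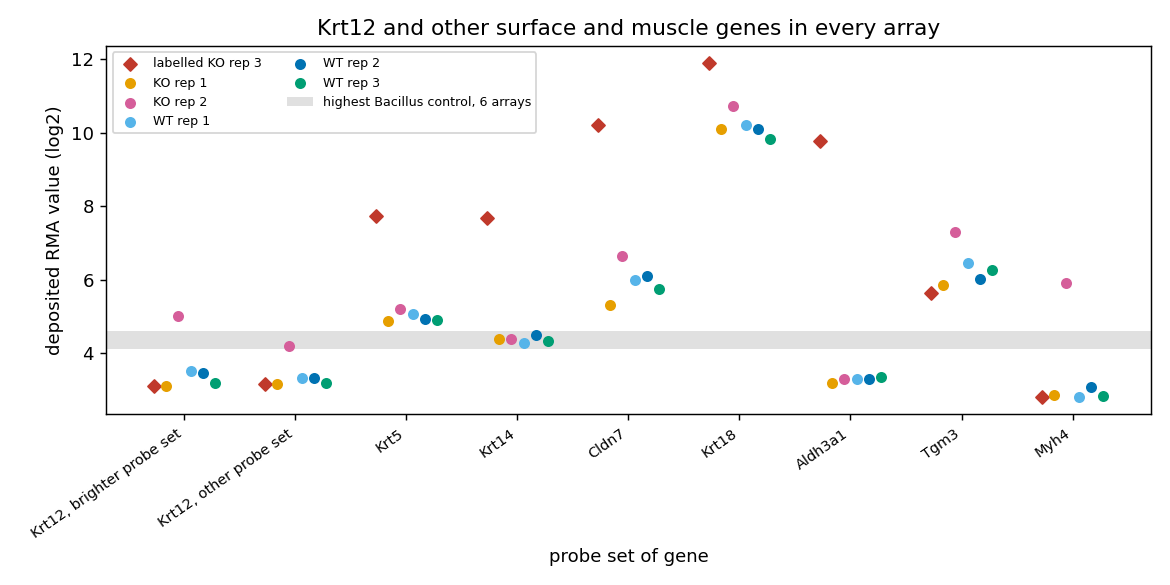
Deposited log2 value in every array (vertical axis) for both Krt12 probe sets, 4 other members, Aldh3a1, Tgm3 and the muscle gene Myh4. Red diamonds are the array labelled knockout replicate 3, circles the other 5 arrays, and the grey band spans the brightest Bacillus control (4.13 to 4.60). Knockout replicate 2 is highest of the 5 circles for Krt12 (5.01 and 4.21), Tgm3 and Myh4 but not for Aldh3a1.

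Members past 0.5 log2 units were also found in wild-type replicate 2, above, and in knockout replicate 1, below. In wild-type replicate 2 Cldn2 read 5.95, against 4.85 to 5.34 in the other 4 arrays, Krt8 read 6.43 against 5.56 to 6.13, and Cldn1 read 5.26 against 4.52 to 4.97. These 3 were 0.84, 0.57 and 0.52 above the rest, the only members past 0.5 there, where 0.797% of all genes passed above. Below, 0 members passed, where 0.176% of genes did. The other Cldn2 probe set differed by 0.00, while the other Krt8 probe sets differed by 0.74 and 0.59. In knockout replicate 1, 4 members lay more than 0.5 below, against 0.726% of all genes, and 0 lay above, against 0.445%. They were Cldn7 (-0.81), Krt12 (-0.70), Cldn2 (-0.54) and Krt8 (-0.52). Krt12 and Cldn7 are also the members highest in knockout replicate 2, which enters the mean they are set against here, and Krt12 in knockout replicate 1 (3.10) lay beside 3.18 to 3.52 in wild type, all below background. All 16 pigment epithelium genes measured were above background in each of the 5 arrays, as were 13097 of all 18193 genes. Tyr passed only narrowly in knockout replicate 1, at 4.2892 against a bound of 4.287. Whether pigment epithelium was carried over despite the dissection described was not tested. The mean level of that list was 7.92 to 8.84, and Rpe65 read 9.54 to 10.82. Pigment epithelium genes had a median difference of 0.77 in wild-type replicate 2, against -0.47 to 0.07 in the other 4 arrays, the lowest being knockout replicate 1. Lens genes had one of 2.64 in wild-type replicate 2, against -0.81 to -0.49 in the other 4, whose values are all set against a mean that holds wild-type replicate 2. Their part in these values was not tested. Surface markers had a median of -0.07 in both arrays.

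Wild-type replicates 1 and 3 showed little. Members in wild-type replicate 1 lay between -0.37 and 0.37 of the other 4 arrays, and 0 passed 0.5 in either direction, where 0.115% of all genes lay above and 0.319% below. In wild-type replicate 3, 1 member lay more than 0.5 below, Krt12 at -0.59 and below background, against 0.654% of all genes, and 0 lay above, against 0.72%.

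**Figure D4:**
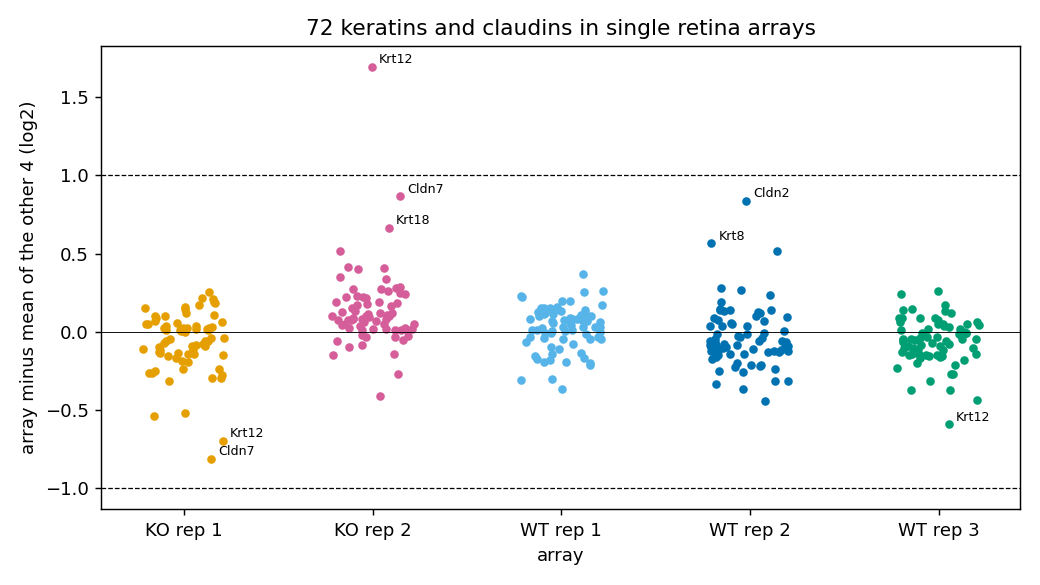
Each of the 5 arrays other than the array labelled knockout replicate 3, minus the mean of the other 4 (log2, vertical axis), for the 72 members. Points are genes with sideways jitter, dashed lines mark 1 log2 unit, and members beyond 0.55 are named. Krt12 in knockout replicate 2 is the only point outside the lines.

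Knockout was then compared with wild type. By limma, 0 of 72 members passed an adjusted p of 0.05 with all 6 arrays, where 0.0% of genes passed, and 0 of 72 passed in the 5 arrays without the array labelled knockout replicate 3, where 0.011% passed (2 genes). At an unadjusted p under 0.05 stood 2 members with 6 arrays, against 0.726% of genes, and 5 with 5 arrays, which is 6.94% of members against 3.45% of genes. The median log2 change of members in the 5 arrays was 0.05, and 0.00 over all genes. Both knockout arrays lay above all wild-type arrays for 8 members (11.1%, against 9.19% of genes) and below them for 4 (5.56%, against 7.27%).

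The members with the smallest p differed by less than 0.5 log2 units. Cldn1 read 4.64 and 4.52 in knockout replicates 1 and 2, against 4.97, 5.26 and 4.83 in wild-type replicates 1, 2 and 3. The groups did not overlap, and the log2 difference of -0.44 (SE 0.13, 95% interval -0.74 to -0.14) did not pass, with a limma adjusted p = 0.9995. Its other probe sets were below background. Krt23 read 3.92 and 4.04 against 4.36, 4.24 and 4.23 (-0.30, SE 0.10), below background in both knockout arrays and in wild-type replicate 2. Krt24 read 4.42 and 4.32 against 4.72, 4.72 and 4.49 (-0.27, SE 0.11), below background in knockout replicate 2. On the higher side Krt6a, a keratin of wounded and stressed epithelium, read 5.72 and 5.95 against 5.53, 5.55 and 5.61 (0.27, SE 0.10), and Cldn34d differed by 0.27 (SE 0.11) below background. All of these had a limma adjusted p = 0.9995. The interval for Krt6a was 0.04 to 0.50, and both other probe sets gave differences of 0.08.

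With the array labelled knockout replicate 3 included, the errors of several members widened. Krt8 stood at 1.57 (SE 1.64, limma adjusted p = 0.745, 95% interval -2.53 to 5.67), against -0.33 (SE 0.20, adjusted p = 0.9995) in the 5 arrays. Krt23 stood at 1.28 with 6 arrays and -0.30 with 5, so its sign rests on that array. Krt12 had a difference of 0.66 in the 5 arrays (SE 0.44, limma adjusted p = 0.9995) and of 0.35 in the 6 (SE 0.56, adjusted p = 0.793). Without knockout replicate 1 it was 1.62 and passed (SE 0.155, limma adjusted p = 0.0372), the 1 remaining knockout array being assumed to vary like wild type, and without knockout replicate 2 it was -0.29 (adjusted p = 0.918). The Krt12 difference between genotypes thus rests on knockout replicate 2.

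**Figure D5:**
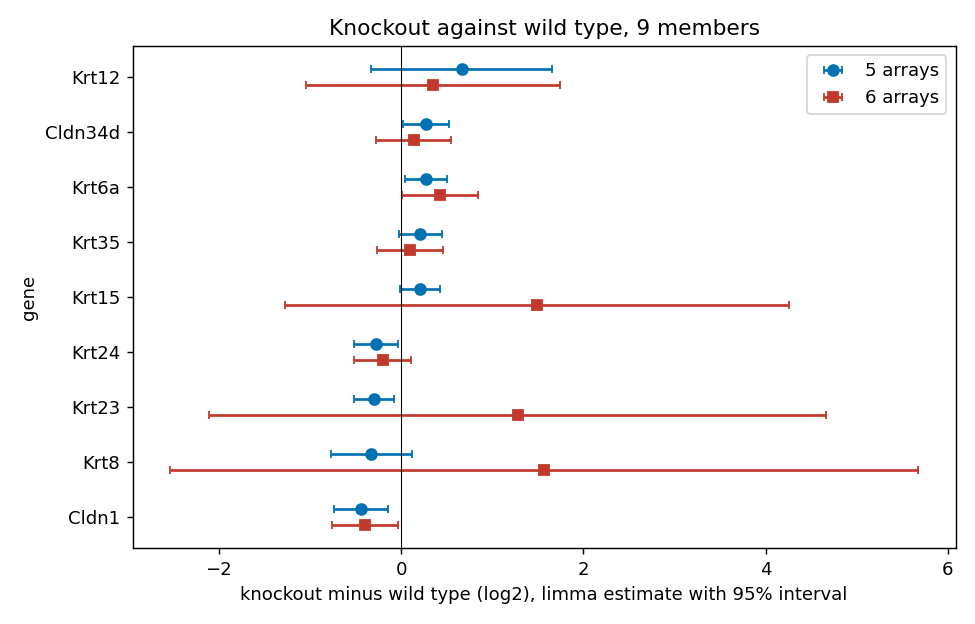
Knockout minus wild type (log2, horizontal axis) by limma with 95% intervals for the 4 members with the smallest p in each direction and Krt12. Blue circles are the 5-array comparison and red squares the 6-array comparison. Krt8, Krt15 and Krt23 have the widest red intervals, and 0 of the 72 members passed in either comparison.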

How the data were processed

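Retinal RNA was hybridised as biotin-labelled cRNA to Affymetrix arrays, per the labels' protocols. The authors deposited log2 signals, for which the submitters' processing notes name RMA (robust multi-array averaging). The software and its version were not given in the sources read. RMA equalises the arrays (medians 5.77 to 5.80), so total RNA cannot be compared, and fold changes of dim genes are compressed. The number of arrays limits precision.

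Of 45037 probe sets without controls, 34945 name 1 gene, 932 several and 9160 none in the platform annotation, and only the first kind was used. Symbols were updated by Entrez identifier through RefSeq (GRCm38.p6) for 18031 of 18193 genes. The 72 members have 96 probe sets, and 16 members have more than 1. Promoter sequences are RefSeq's (GRCm38.p6).

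The genotypes were fitted with limma 3.58.1 in R 4.3.3 (lmFit and eBayes, two-sided, no covariate) over all 18193 genes. Calls used an adjusted p under 0.05 (Benjamini-Hochberg). The fit was tested on simulated data. Comparisons of 1 array use a fixed log2 size (2, or 1 among the 5 retina arrays) and no test. The 12 marker lists hold 221 names, of which 203 were measured and 4 stand in 2 lists. Members, classes and lists were chosen with earlier results of these data known. Named members were taken by the size of their single-array difference, the smallest limma p in each direction, their level or their nearness to the size used, with their other probe sets. Krt1, Krt4, Krt10, Krt13, Krt17, Krt20, Krt72, Krt80, Krt222, Cldn6, Cldn13, Cldn14, Cldn15, Cldn16, Cldn18, Cldn19 and Cldn22 complete classes and were named after their values were seen. Alternatives covered the variance model, array weights, rescaling, dim genes, the replicate block, the probe set rule, the thresholds and each array left out.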

Additional observations from a re-analysis of the deposited data

How the results depend on the processing

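Members called between genotypes stayed at 0 in all alternatives with 6 arrays and in all with 5 except 1: with single arrays left out the count was 0 to 1, the 1 being Krt12 at 1.62 without knockout replicate 1. Without knockout replicate 2 the Krt12 change reversed to -0.29. Over all genes, the 6-array count of 0 became 2 with array quality weights, and 0 to 2 with each array left out, the 2 without the array labelled knockout replicate 3. The 5-array count of 2 became 1 with the mean of all probe sets and 1 to 8 with each array left out, 8 without either knockout array and 1 without wild-type replicate 3. With the replicate block 3 genes and 0 members were called in the 5 arrays, and 0 and 0 in the 6. Same-numbered arrays were not treated as pairs in the main fit. Their deviations from the group means correlated across genes at -0.07, -0.01 and -0.08 with 6 arrays, and -0.07 and 0.08 with 5. With 5 arrays the deviations of the 2 knockout arrays are exact opposites, so their correlations mirror each other. Those 2 values are therefore not separate observations and cannot decide whether numbers pair the arrays.

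The 17 members above in the array labelled knockout replicate 3 were 16 or 17 under every alternative of scaling, probe set and array left out, all among the same 17. They were 20 at a size of 1 log2 unit (2869 of 18193 genes), 13 at 3 and 24 of all 96 member probe sets, and became 4 when genes below the 40th percentile were removed, since 12 members then remain. The counts at 3, over probe sets and without dim genes have no share over all genes beside them, so they cannot show an excess. At a size of 1 log2 unit 1 member lay below, Krt222, as did 2085 of 18193 genes. The count of 1 in single retina arrays was 0 to 1 with each array left out, 0 without dim genes or without knockout replicate 2, and 7 at 0.5 log2 units. Counting all 96 probe sets was chosen after seeing the data. The number of arrays limits precision, and signal limits the 31 members above background in none of the 5 arrays.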
